A study of Danio rerio with 44 samples.

Results

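Heart muscle genes were followed across whole wild-type zebrafish embryos held in 1 of 3 fluorinated compounds. The genes were chosen by name: the lines of the gene table whose symbol, in any case of letters, is myh6, myh7, myl7, cmlc1, tnnt2a, tnni1b, actc1a, nppa, nppb or ryr2b. Of these 10 symbols 7 had a line, and because 3 lines carry the symbol myh6 the set holds 9 of the 25859 gene lines. All 9 passed the filter on low counts, as did 22703 lines in all. The compounds were PFOS (perfluorooctane sulphonate), PFECHS (a perfluorinated ethylcyclohexane sulphonate) and FBSA (a perfluorinated butane sulphonamide), each at 0.001, then 0.1, 1 and 5 mg/L. The vehicle was 0.1% DMSO, and each compound had solvent controls of its own. Exposure ran for 72 h, from 24 to 96 hours after fertilization. Every library was made from a pool of 20 whole embryos, with 3 pools in each group but 2 in FBSA at 0.1 mg/L. This gave 44 libraries in 15 groups, with total counts between 24478738 and 36533705. Levels are given as CPM, a library's counts scaled to a common total after TMM normalisation. Because each library is a pool, the p-values measure the spread between pools. In the main fit that spread was estimated for each gene over all 15 groups together, not for each compound. In a whole embryo fewer cells of a type and less RNA per cell cannot be told apart.

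The heart of a fish embryo beats from the end of the first day of development and has an atrium and a ventricle in series. Its muscle cells contract through sarcomeres, in which thick filaments of myosin pull on thin filaments of actin, troponin and tropomyosin, and calcium released through the ryanodine receptor starts each beat. The atrial and ventricular cells of zebrafish use different myosin heavy chains, and stretched or stressed heart muscle secretes natriuretic peptides, which in mammals lower blood volume and pressure.

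The lines were MYH6 (ENSDARG00000079564), myh6 (ENSDARG00000090637), MYH6 (ENSDARG00000114031), MYH7 (ENSDARG00000079782), MYL7 (ENSDARG00000019096), cmlc1 (ENSDARG00000032976), actc1a (ENSDARG00000042535), nppa (ENSDARG00000052960) and nppb (ENSDARG00000052958). The names tnnt2a, tnni1b and ryr2b had no line of their own. The 5 lines that bear these symbols without the copy letter (2 for TNNT2, 2 for TNNI1 and 1 for RYR2) are described beside the members and are not counted among them. Capitals are those of the name table and follow the human gene, so which heart chamber a MYH6 or MYH7 line stands for is not given. Myosin heavy chains are close copies of each other, and how reads were shared between them is not given, so the split of counts among the 4 myosin heavy chain lines is uncertain.

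No member passed the test at any concentration of any compound, although with PFOS and PFECHS nearly every member had a positive change. With FBSA most did not, except at 0.1 mg/L, a group of 2 pools, where all 9 were positive. With edgeR's quasi-likelihood test and a Benjamini-Hochberg adjusted p of 0.05 over all genes, 0 of the 108 member tests at single concentrations passed. At an unadjusted p of 0.05 there were 11, of which 6 were with PFOS, 5 with PFECHS and 0 with FBSA, and DESeq2 called 1 after adjustment, leaving 7 adjusted p-values blank. The share of all genes with an unadjusted p under 0.05 was 6.77% to 15.1% over the PFOS concentrations, 1.87% to 7.03% over those of PFECHS and 1.14% to 28.1% over those of FBSA. The shares of all genes called by edgeR were 0%, 0.0176%, 0.00881% and 0.0132% for PFOS at 0.001, then 0.1, 1 and 5 mg/L, 0% at every PFECHS concentration and at FBSA 0.001, 0.1 and 1 mg/L, and 11.2% at FBSA 5 mg/L. The sign of the change was positive in 35 of 36 member tests with PFOS, 34 of 36 with PFECHS and 14 of 36 with FBSA, where it was positive in 1, 9, 2 and 2 of 9 in order of concentration. Over all genes the positive share was 52.8% to 54.8% with PFOS, 51.5% to 52.6% with PFECHS and 48.8% to 54.2% with FBSA. The concentrations of a compound share their 3 control pools, so these signs are not independent of each other. The 9 lines were also read in the same pools and were correlated across them (median Pearson correlation 0.67). The signs are thus not 36 separate results.

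The median log2 fold change over the 9 lines with PFOS was 0.70, 1.02, 0.75 and 0.73 in order of concentration, where the median over all genes was 0.02, 0.03, 0.03 and 0.04. With PFECHS the members' medians were 0.83, 1.25, 0.71 and 1.18, against 0.02, 0.02, 0.01 and 0.02 over all genes. With FBSA they were -0.16, 0.63, -0.29 and -0.32, against 0.02, -0.01, 0.02 and -0.01. In neither of the first 2 series did the median grow with each step of concentration, since 0.1 mg/L had the highest value in both. In the equal-step trend from control to 5 mg/L, edgeR called 0 of 27 member tests, 3 passed an unadjusted p of 0.05, and DESeq2 called 0. The share of all genes called in the trend was 0.348% for PFOS, 0% for PFECHS and 11.2% for FBSA, and the share at an unadjusted p under 0.05 was 8.94%, 3.4% and 26.8%.

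**Figure D1:**
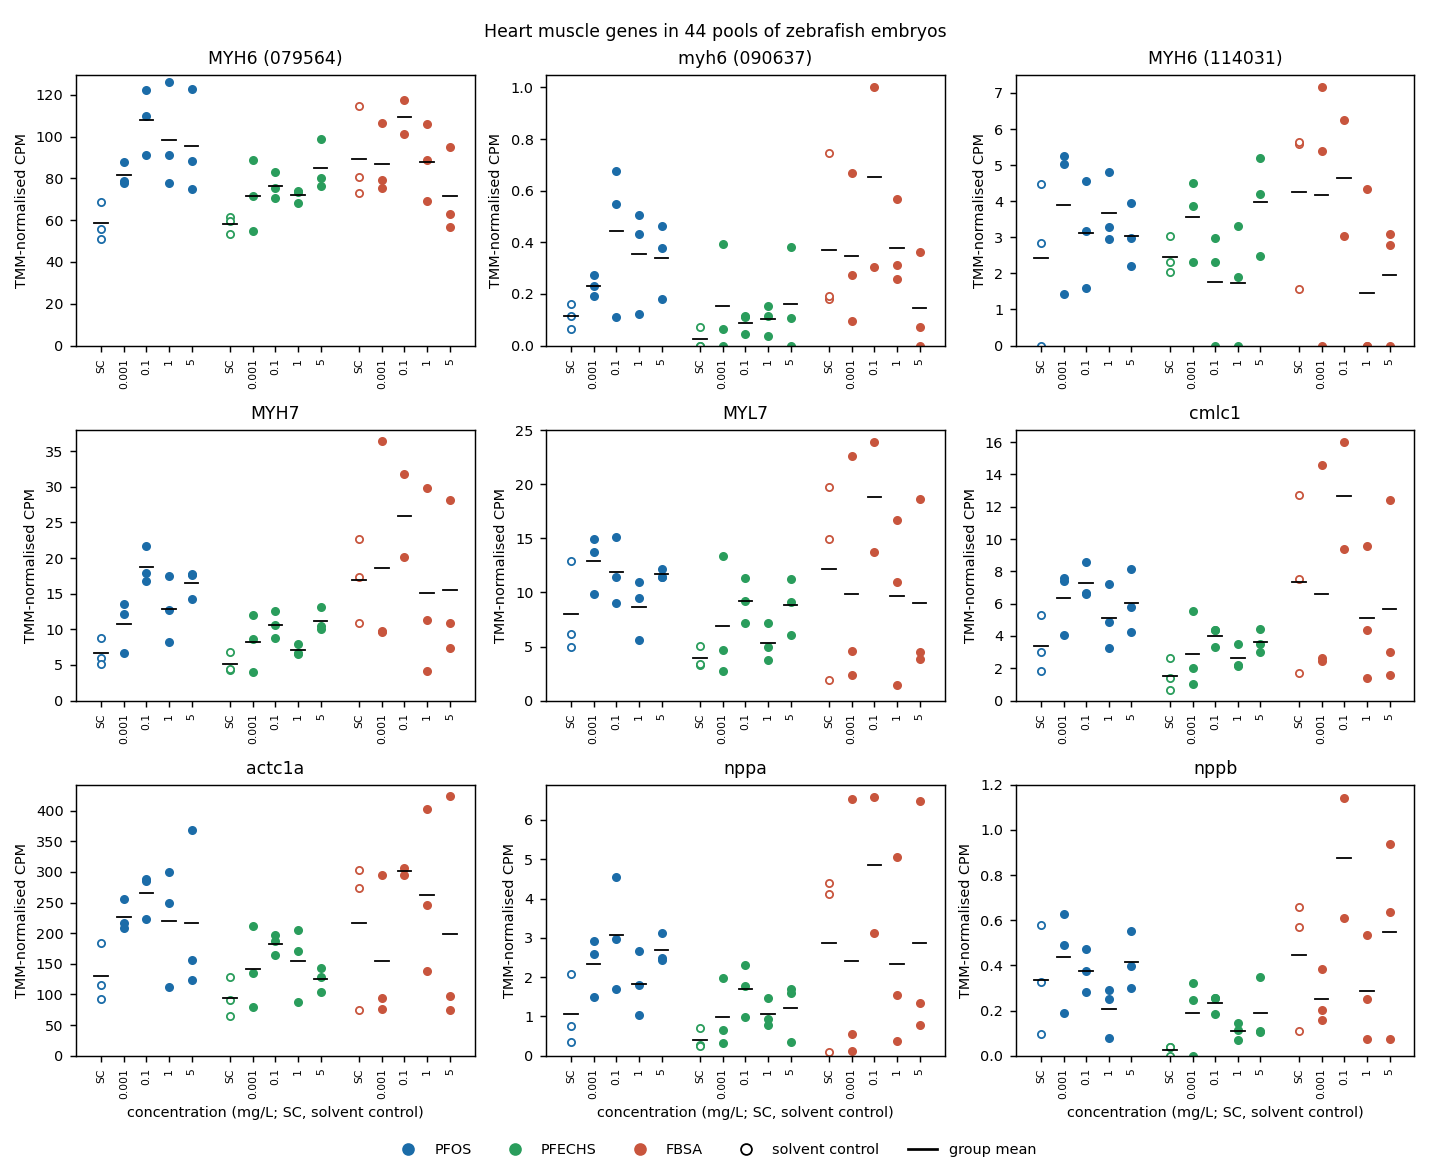
Level (CPM, normalised with TMM factors) of the 9 heart muscle lines in each of the 44 pools. Each panel is 1 line, with solvent controls (SC, open points) and then rising concentrations for each compound, and short lines are group means. The 12 PFOS-exposed pools of MYH6 ENSDARG00000079564 all lie above its 3 PFOS controls, and FBSA groups hold both high and low pools.

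Among the myosin heavy chains, the motor proteins of the thick filament, MYH6 ENSDARG00000079564 kept the exposed and control pools of PFOS apart at all 4 concentrations. Its CPM were 55.5, 51.0 and 68.7 in the PFOS solvent controls, 77.6, 78.9 and 87.9 at 0.001 mg/L, 109.8, 91.0 and 122 at 0.1 mg/L, 126, 91.2 and 78.0 at 1 mg/L, and 88.5, 74.8 and 123 at 5 mg/L. All 12 exposed pools were above the highest control, as they were for 1.81% of all genes tested. At 0.1 mg/L it averaged 108 ± 15.8 CPM, against 58.4 ± 9.20 CPM in the controls (SD, n = 3 each), a log2 fold change of 0.88 ± 0.21 (SE) with an edgeR adjusted p of 0.149. The changes at 0.001, 1 and 5 mg/L were 0.48, 0.75 and 0.71 (adjusted p = 0.612, 0.402 and 0.292 with edgeR). DESeq2 called the line at 0.1 mg/L (adjusted p = 0.0280), among 41 genes of all. A fit of edgeR to the PFOS libraries alone called it and MYH7 there, among 376 of 21980 genes, where the main fit called 4 genes.

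With PFECHS the same MYH6 line had 61.6, 53.2 and 59.6 CPM in the solvent controls, 71.7, 54.6 and 88.7 at 0.001 mg/L, 70.6, 83.1 and 75.3 at 0.1 mg/L, 74.2, 73.5 and 68.0 at 1 mg/L, and 80.3, 76.2 and 98.9 at 5 mg/L. All but 1 of the 12 exposed pools were above the highest control. The log2 fold changes were 0.30, 0.39, 0.31 and 0.55 in order of concentration, with adjusted p-values of 0.704 or more by edgeR. With FBSA it had 80.6, 115 and 73.0 CPM in the controls, 106, 79.2 and 75.4 at 0.001 mg/L, 101 and 118 at 0.1 mg/L, 88.8, 69.3 and 106 at 1 mg/L, and 63.1, 95.1 and 56.7 at 5 mg/L. Here every exposed group overlapped its controls, and the change at 5 mg/L was -0.32 ± 0.21 (SE, adjusted p = 0.324 with edgeR).

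MYH7, whose human namesake is the slow and ventricular myosin heavy chain, had 6.04, 5.15 and 8.78 CPM in the PFOS controls, 12.1, 6.65 and 13.5 at 0.001 mg/L, 21.7, 16.8 and 17.9 at 0.1 mg/L, 17.5, 12.7 and 8.27 at 1 mg/L, and 17.6, 14.3 and 17.8 at 5 mg/L. Pools did not overlap the controls at 0.1 and 5 mg/L, where the log2 fold changes were 1.5 ± 0.52 and 1.32 ± 0.52 (SE, adjusted p = 0.250 and 0.495 with edgeR). With PFECHS its changes were 0.66, 1.03, 0.44 and 1.1, and the 5 mg/L pools (13.1, 10.01 and 10.4 CPM) lay above the controls (6.86, 4.32 and 4.45 CPM). With FBSA the pools at 5 mg/L had 10.9, 28.1 and 7.38 CPM, against 17.3, 22.6 and 10.9 CPM in the controls. The highest and lowest of these 6 values were both in exposed pools.

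The other myosin heavy chain lines rested on few or unstable counts. The lower-case myh6 line was at 0 in 5 libraries and had a median of 5 counts a library. Its counts summed over the pools were 30 at PFOS 5 mg/L and 10 in the PFOS controls, a ratio per total count of 3.00 (exact 95% interval of counting error 1.43 to 6.88). At PFECHS 5 mg/L there were 15, against 2 in the controls, a ratio of 6.82 with an interval of 1.59 to 61.5. The 3 exposed pools held 12, 0 and 3 of these counts, and the log2 fold change ranged from 0.95 to 5.34 with 1 library left out at a time. At FBSA 5 mg/L there were 14, against 38 in the controls, a ratio of 0.407 with an interval of 0.204 to 0.769. The exposed pools held 2, 12 and 0 of them and the controls 5, 26 and 7, and the log2 fold change ranged from -3.23 to -0.29 with 1 library left out at a time. These intervals cover counting error and not the spread between pools, and the edgeR adjusted p was 0.405 or more in each of the 3 comparisons. MYH6 ENSDARG00000114031 was estimated at 0 in 7 libraries spread over all 3 compounds although its median was 90 counts, and its changes ranged from -1.54 at FBSA 1 mg/L to 0.69 at PFECHS 5 mg/L and at PFOS 0.001 mg/L.

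The myosin light chains, small subunits that stiffen and tune the neck of the heavy chain, had changes of the same sign as MYH7 at 5 mg/L of each compound. MYL7, the regulatory light chain of heart muscle, had 12.2, 11.5 and 11.5 CPM at PFOS 5 mg/L, against 6.20, 4.99 and 12.9 CPM in the PFOS controls. The highest control lay above all 3 exposed pools, and the change was 0.55 ± 0.72 (SE, adjusted p = 0.865 with edgeR). At PFECHS 5 mg/L the line had 9.08, 11.2 and 6.08 CPM, against 5.06, 3.28 and 3.35 CPM in the controls, with no overlap and a change of 1.18 ± 0.74 (SE, adjusted p = 0.741 with edgeR). At FBSA 5 mg/L it had 4.53, 18.6 and 3.81 CPM, against 14.9, 19.7 and 1.90 CPM in the controls. Both of these FBSA groups held pools more than 2-fold apart, and over all 44 libraries the highest value of MYL7 was 17.0 times the lowest.

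The essential light chain cmlc1 had 4.25, 5.78 and 8.17 CPM at PFOS 5 mg/L, against 2.99, 1.82 and 5.28 CPM in the controls (change 0.86 ± 0.71, SE, adjusted p = 0.791 with edgeR). At PFECHS 5 mg/L it had 3.00, 4.41 and 3.48 CPM, against 2.61, 1.37 and 0.662 CPM in the controls (change 1.23 ± 0.75, SE, adjusted p = 0.734 with edgeR). The PFECHS pools did not overlap and the PFOS pools did. At FBSA 5 mg/L it had 1.58, 12.4 and 3.04 CPM, against 7.54, 12.7 and 1.71 CPM in the controls, where the exposed pools spanned nearly the whole range of the controls. The largest change of both light chains was at 0.1 mg/L in the PFECHS series (MYL7 1.25 and cmlc1 1.38), with all 3 exposed pools above the controls.

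The actin of the thin filament in this set is actc1a, an alpha cardiac actin. It had 116, 92.4 and 184 CPM in the PFOS controls, 209, 216 and 255 at 0.001 mg/L, 285, 224 and 289 at 0.1 mg/L, 300.1, 249 and 112 at 1 mg/L, and 157, 124 and 369 at 5 mg/L. Exposed pools lay above every control at 0.001 and 0.1 mg/L and overlapped them at 1 and 5 mg/L. The log2 fold changes were 0.80, 1.02, 0.75 and 0.73 in order of concentration, each with an SE of 0.56 and an adjusted p of 0.371 or more by edgeR. With PFECHS the changes of actc1a were 0.59, 0.95, 0.71 and 0.41, with adjusted p-values of 0.853 or more by edgeR. Of the 12 exposed pools 9 lay above every control with PFECHS, as 9 of 12 did with PFOS. At FBSA 5 mg/L it had 74.6, 424 and 98.2 CPM, against 273, 303 and 74.6 CPM in the controls. The second exposed pool held the highest value of all 44 libraries, and the other two, at 74.6 and 98.2 CPM, lay below the 2 higher controls.

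The natriuretic peptides nppa and nppb, the fish counterparts of the atrial and brain peptides, varied widely between pools. At PFOS 5 mg/L nppa had 2.48, 3.13 and 2.42 CPM, against 0.755, 0.352 and 2.08 CPM in the controls, a change of 1.35 ± 1.00 (SE, adjusted p = 0.763 with edgeR). All 3 exposed pools were above the highest control, by a small margin. At PFECHS 5 mg/L it had 1.69, 1.59 and 0.351 CPM, against 0.694, 0.267 and 0.257 CPM in the controls, with overlap. At FBSA 5 mg/L it had 0.774, 6.48 and 1.34 CPM, against 4.40, 4.13 and 0.0826 CPM in the controls. The lowest of these controls was also the lowest library of all, and the highest library, at 6.57 CPM in FBSA at 0.1 mg/L, was 79.6 times it.

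The peptide nppb was scarce in every group, with a median of 8 counts a library. In the PFECHS series its 3 controls together held 2 counts, while the pools held 16, 20, 10 and 17 counts in order of concentration. The ratio per total count at 5 mg/L was 7.73, with an exact 95% interval of counting error from 1.84 to 69.0, and 11 of the 12 exposed pools were above the highest control. The edgeR adjusted p of nppb was 0.704 or more at each PFECHS concentration. With PFOS the counts were 28 in the controls, then 41, 37, 18 and 36 in order of concentration. With FBSA they were 43 in the controls, then 23, 52 (over 2 pools), 26 and 51, so the PFECHS controls were the lowest group of the series for nppb.

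**Figure D2:**
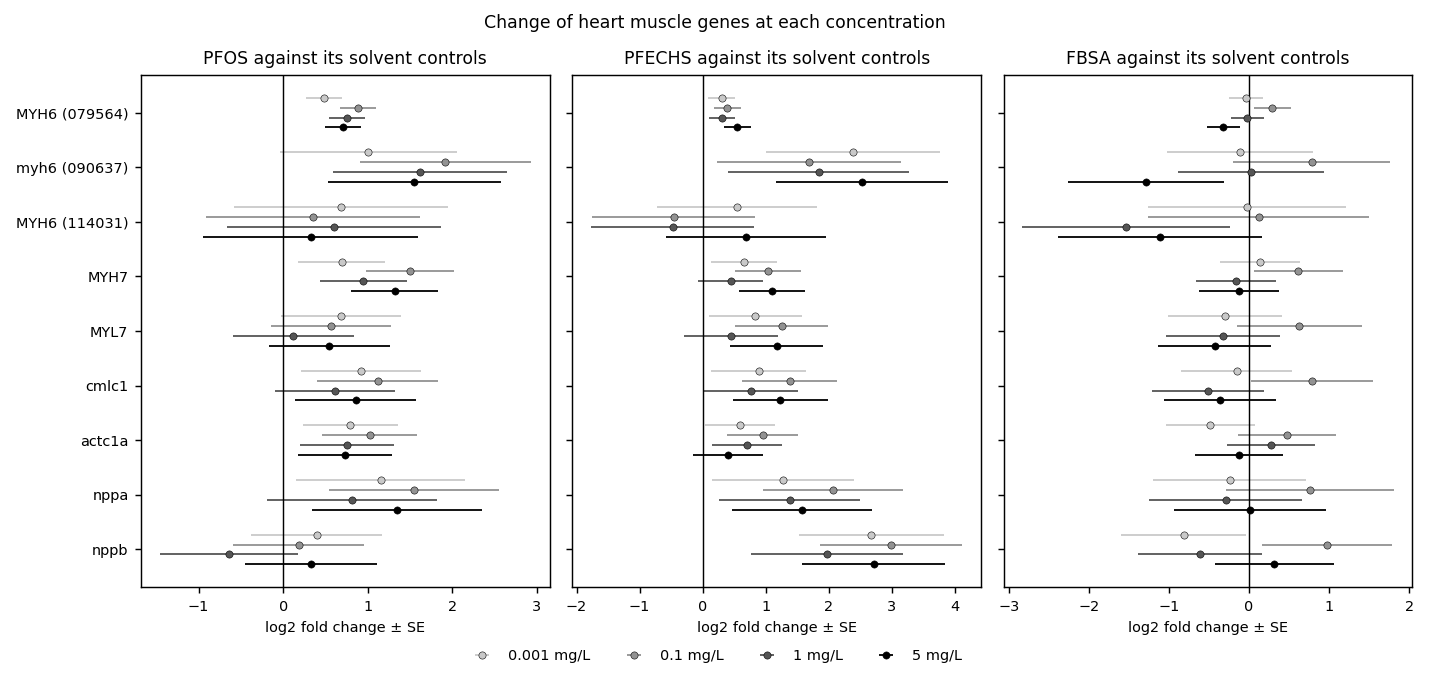
Log2 fold change of each heart muscle line at each concentration against the solvent controls of its own compound, with bars of 1 SE from edgeR and shading from 0.001 (lightest) to 5 mg/L (black). With PFOS 35 of 36 points and with PFECHS 34 of 36 lie right of 0, against 14 of 36 with FBSA, and the 3 panels have different horizontal scales.

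Counting members whose exposed pools all lay above their controls gave 3, 4, 1 and 4 of 9 for PFOS in order of concentration, where 16.4%, 15%, 8.7% and 11.1% of all genes did so. For PFECHS the counts were 0, 7, 3 and 5 of 9, where the shares of all genes were 6.68%, 9.14%, 4.11% and 11.4%. The 7 at PFECHS 0.1 mg/L were MYH6 ENSDARG00000079564, MYH7, MYL7, cmlc1, actc1a, nppa and nppb. Some of the members counted were scarce. At PFOS 5 mg/L the lower-case myh6 line was apart by 0.180 CPM (lowest exposed) against 0.160 CPM (highest control). At PFECHS 1 mg/L nppb was apart by 0.0715 against 0.0382 CPM, with 10 summed counts in the exposed pools and 2 in the controls. For FBSA no member was apart from its controls in either direction at any concentration, where 2.97%, 14.9%, 6.22% and 17.3% of all genes were. Members correlated across pools are not separate results, so these counts are descriptions.

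The lines that carry a listed symbol without its copy letter gave 0 calls by edgeR in 60 tests at single concentrations, with 11 at an unadjusted p under 0.05 and 0 by DESeq2. TNNI1 ENSDARG00000052708, named after the troponin I that holds the thin filament off at rest, had 14.4, 14.1 and 18.8 CPM at PFOS 5 mg/L, against 8.69, 8.99 and 10.4 CPM in the controls. Its pools did not overlap, and the change was 0.75 ± 0.23 (SE, adjusted p = 0.300 with edgeR). TNNT2 ENSDARG00000020610, named after the troponin T that anchors the complex to tropomyosin, had 5.13, 5.10 and 5.69 CPM at PFECHS 5 mg/L, against 3.10, 2.06 and 2.54 CPM in the controls (change 1.05 ± 0.36, SE, adjusted p = 0.704 with edgeR). The other TNNT2 line, ENSDARG00000100694, had changes of 0.60 at PFOS 5 mg/L and 0.23 at PFECHS 5 mg/L. With FBSA 7 of its 11 exposed pools lay below every control and 1 above. RYR2, named after the calcium release channel of heart muscle, had 4.10, 4.71 and 3.35 CPM at PFOS 5 mg/L, against 3.08, 3.23 and 2.97 CPM in the controls, and its change there was 0.39 ± 0.27 (SE, adjusted p = 0.745 with edgeR). With PFECHS 6 of the 12 exposed pools of RYR2 lay below every control and 3 above. With PFOS 11 of its 12 exposed pools lay above every control. The PFOS count was 12 of 12 for TNNI1 ENSDARG00000052708, as for 1.81% of all genes. It was 10 for TNNT2 ENSDARG00000100694 (1 below), 9 for TNNT2 ENSDARG00000020610 and 9 for TNNI1 ENSDARG00000000474 (3 below). The shares of all genes for counts short of 12 are not given here.

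Between compounds, the change of MYH6 ENSDARG00000079564 at 5 mg/L was lower with FBSA than with PFOS by about 1 log2 unit, and no other member passed a test of a difference. This line averaged 89.4 CPM in the FBSA controls and 58.4 CPM in the PFOS controls, and 71.6 and 95.4 CPM at 5 mg/L of FBSA and PFOS. The gap between the controls is thus a part of the difference in change. The FBSA change of this line was -0.32 and the PFOS change 0.71, a difference of -1.03 ± 0.30 (SE, adjusted p = 0.0426 with edgeR). In that contrast 1 of the 9 members was called, where 4.92% of all genes were. Lines of the other heart and muscle lists described below were also called lower there by edgeR. The slow skeletal lines myh7ba and MYBPC1 had differences of -1.07 and -1.05 (edgeR adjusted p = 0.0197 and 0.0152). MYBPC2, xirp1, SLC8A1, MEF2A, LMOD1 and TAGLN were called lower too, so the difference was not particular to this line. The call of MYH6 ENSDARG00000079564 was lost without PFOS control 1 or 2, PFOS 5 mg/L pool 1 or 3, FBSA control 2, or FBSA 5 mg/L pool 1 or 3, with differences between -1.29 and -0.80 over all libraries left out in turn. It was also lost with a term for the last 11 columns of the table (-0.79, adjusted p = 0.0942) or for the main axis between libraries (-0.67, adjusted p = 0.0519), both with edgeR. FBSA controls 2 and 3 and PFOS 5 mg/L pool 3 are among those columns. FBSA control 1, the PFOS controls and the FBSA 5 mg/L pools are not. Place in the table is thus partly confounded with this difference, and what the place stands for is not given. The difference of MYH6 ENSDARG00000079564 between FBSA and PFECHS was -0.87 ± 0.30 (SE, adjusted p = 0.0591 with edgeR), where 9.17% of all genes were called and 0 members were by edgeR. DESeq2 called that difference (adjusted p = 0.0428), among 3016 genes of all. The PFECHS change minus the PFOS change was -0.16, with an interval of 2 SE from -0.75 to 0.44.

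Of the 12 contrasts between compounds, the 9 at 0.001, 0.1 and 1 mg/L gave 0 called members by edgeR and 0% of all genes, and over all 108 member tests 6 passed an unadjusted p of 0.05, and 2 were called by DESeq2. Of all genes 0.947% to 27% had an unadjusted p under 0.05 in these contrasts, the highest shares being 24.3% and 27% where FBSA at 5 mg/L was set against PFOS and PFECHS. At 5 mg/L all 9 members had a negative difference between FBSA and PFOS (median -1.22, against -0.06 over all genes) and between FBSA and PFECHS (median -1.59, against -0.04). These differences share the FBSA libraries, so they are not separate evidence. Each also holds the gap between the controls of the compounds compared. All 9 members were higher in the FBSA controls than in the PFOS controls and in the PFECHS controls. How far that gap sets these differences was not tested. MYH7 differed by -1.45 between FBSA and PFOS, with an interval of 2 SE from -2.89 to -0.01 and an edgeR adjusted p of 0.212. For actc1a the interval ran from -2.42 to 0.72, and for nppa from -4.10 to 1.43, wide enough to hold both no difference and large ones. Without FBSA 5 mg/L pool 2, edgeR called 3 members between FBSA and PFOS (MYH6 ENSDARG00000079564, MYH7 and the lower-case myh6) and 4 between FBSA and PFECHS (these and cmlc1). Over all libraries left out in turn, 56 to 4100 genes of all were called between FBSA and PFOS. The share of all genes in the refits without pool 2 is not given here, so these counts are not read as results about the members. Beside the members, TNNI1 ENSDARG00000000474 had 0.258, 0.0909 and 0.459 CPM at FBSA 5 mg/L and 0.286, 0.774 and 0.661 CPM in the FBSA controls, while it had 0.574, 1.01 and 1.05 CPM at PFECHS 5 mg/L and 0.490, 0.0382 and 0.221 CPM in the PFECHS controls. The difference in its change was -2.92 ± 0.93 (SE, adjusted p = 0.0438 with edgeR). This call was lost without any 1 of PFECHS control 2 or 3, PFECHS 5 mg/L pool 2 or 3, FBSA control 2 or 3, and FBSA 5 mg/L pool 1, 2 or 3 (differences from -3.82 to -2.41 over all libraries left out in turn). The call was also lost with a term for the last 11 columns of the table, and with the replicate number as a block (-2.84, adjusted p = 0.0660 with edgeR).

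**Figure D3:**
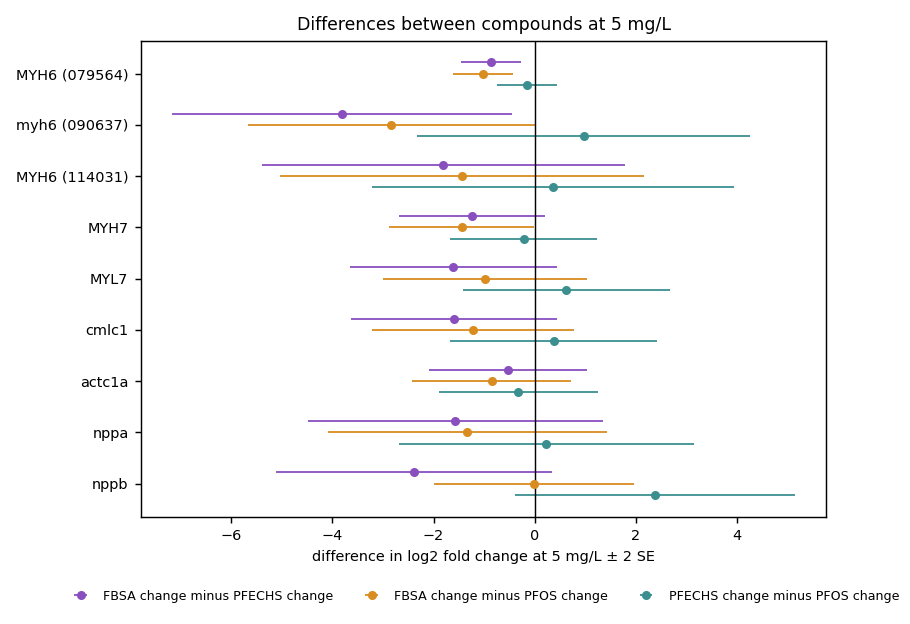
Difference between compounds in the log2 fold change at 5 mg/L of each heart muscle line, each change taken against the compound's own solvent controls, with bars of 2 SE. All 18 differences with FBSA first lie at or left of 0, and the differences between PFECHS and PFOS lie on both sides of it.

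The solvent controls of the 3 series were also set against each other. The 9 lines were all higher in the FBSA controls than in the PFECHS controls, by a median log2 difference of 1.70 (0.03 over all genes), and 8 of 9 had an unadjusted p under 0.05, as 22.8% of all genes did. After adjustment edgeR called 0 of them and 0% of all genes, with a smallest member p of 0.0605 for nppb, while DESeq2 called MYH7, cmlc1 and nppb, among 1222 genes of all. Without FBSA control 3 edgeR called 5 members, in a refit whose share of all genes is not given here. Between FBSA and PFOS controls all 9 differences were positive with a median of 0.81, and between PFECHS and PFOS controls 1 of 9 was positive with a median of -1.04. With edgeR these had 2 and 1 unadjusted p under 0.05, where 18.3% and 1.01% of all genes did, and 0 calls after adjustment (0.15% and 0% of all genes were called), and DESeq2 also called 0 members in both. MYH7 averaged higher in each exposed group of PFECHS than in its own controls, yet no PFECHS group mean reached that of the FBSA controls. How far the levels of the controls set the sign of each compound's changes was not tested.

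The levels of the members were correlated across pools. Over the 36 pairs of members the median Pearson correlation of log2 CPM across the 44 libraries was 0.67, and over the 28 pairs without MYH6 ENSDARG00000114031 it was 0.73, from 0.52 to 0.90. Pools of a group share their treatment and each pool's values share 1 library, so these are descriptions. The mean of the members' standardized log2 CPM gave a score for each pool. Within FBSA groups the score spanned -0.85 to 1.19 in the controls, -0.87 to 1.25 at 0.001 mg/L, -1.22 to 0.83 at 1 mg/L and -0.84 to 1.26 at 5 mg/L. The 2 pools of FBSA at 0.1 mg/L spanned 0.96 to 1.53, while FBSA controls 1, 2 and 3 were at 0.72, 1.19 and -0.85. The positive changes at 0.1 mg/L thus rest in part on the low control 3. In the other series, PFECHS at 5 mg/L spanned -0.28 to 0.13 and its controls -1.35 to -0.89. Wider spans were seen there too, -1.35 to 0.43 in PFECHS at 0.001 mg/L, -0.92 to 0.20 in the PFOS controls and -0.40 to 0.77 in PFOS at 1 mg/L. The pooled SD within FBSA groups in log2 CPM was 1.51 for MYL7 and 2.03 for nppa, compared with 0.45 and 0.72 within PFOS groups. For such lines the shared estimate of the main fit can make p-values too small with FBSA and too large with PFOS. Fits to the libraries of 1 compound called 0 genes at FBSA 5 mg/L and 376 at PFOS 0.1 mg/L. The main fit called 2550 and 4.

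The score followed the main axis of all genes, the first principal component of log2 CPM, with a correlation of 0.91 over the 44 libraries. Among the members the correlation with the axis ran from 0.28 for MYH6 ENSDARG00000114031 to 0.90 for MYL7. With the axis as a term in the fit, edgeR called nppa at FBSA 5 mg/L (1.63, adjusted p = 0.0228) and MYH6 ENSDARG00000079564 and MYH7 in the PFOS trend, and the changes of MYH7, MYL7, cmlc1 and actc1a at FBSA 5 mg/L turned positive. That fit called 4529 of 22703 genes at FBSA 5 mg/L and 377 in the PFOS trend. The axis was computed from these same libraries with the members included, so it is not an independent adjustment. With total counts the score had a correlation of 0.30. Of the other genes tested 0.185%, or 42 genes, had a correlation of at least 0.9 with the score, and the median over all others was 0.03. With lines of placeholder symbol or no symbol left out, the 5 most alike were fam83ha (0.952), COL5A2 (0.952, a fibrillar collagen chain), fap (0.940, a protease of connective tissue fibroblasts), DSP (0.937, desmoplakin of desmosomes) and TPM2 (0.935, a tropomyosin).

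**Figure D4:**
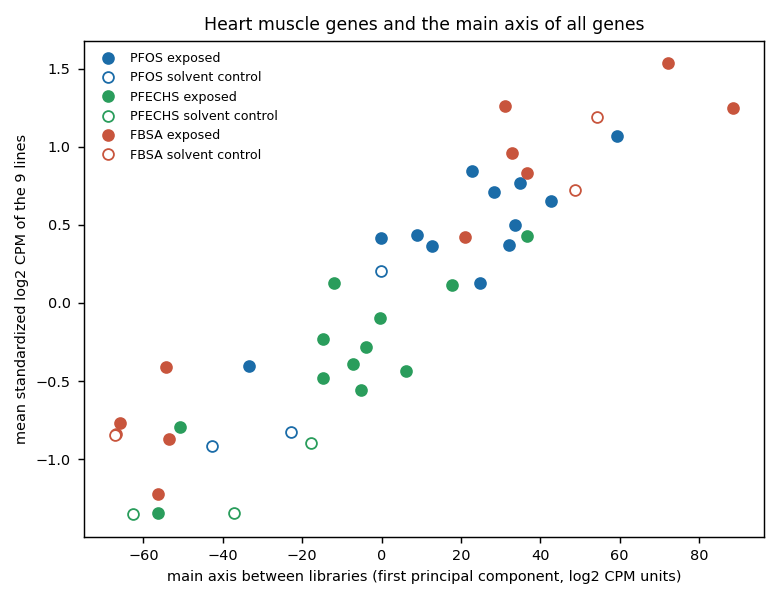
Mean standardized log2 CPM of the 9 heart muscle lines in each pool, plotted against the pool's place on the first principal component of all genes. Pools of all 3 compounds, controls as open points, fall along a single band (correlation 0.91, 44 libraries), and FBSA pools lie at both ends of it.

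Markers of other muscle moved with the members. The correlation of the score with the mean of the fast skeletal muscle list was 0.81, with slow skeletal muscle 0.86 and with smooth muscle 0.84. With the cardiac sarcomere list it was 0.90. The means of these lists also followed the main axis of all genes, with correlations of 0.86, 0.79, 0.92 and 0.92 in the same order. Of the other genes, taken singly, 3.41% had a correlation of at least 0.8 with the score. The summed level of the 36 fast skeletal muscle lines ran from 58417 to 119680 CPM at PFOS 5 mg/L, against 57628 to 90731 CPM in its controls. At FBSA 5 mg/L it ran from 37954 to 96035 CPM, against 60319 to 119330 CPM in the controls. The summed fast muscle level was far from 0 in all these pools, and the part of other muscle in the members' values was not tested. The 9 members summed to between 239 and 535 CPM at PFOS 5 mg/L, against 159 to 287 CPM in its controls.

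Beside the members, 8 further lists covered the wider heart programme and, in 3 of them, fast skeletal, slow skeletal and smooth muscle. Of the 171 lines tested in the 8 lists, edgeR called 0 at 5 mg/L of PFOS or PFECHS and 15 at FBSA 5 mg/L, and DESeq2 called 2, 0 and 18. Of all 22703 genes edgeR called 0.0132%, 0% and 11.2% in the same order, and DESeq2 called 100, 3 and 3484 genes. At FBSA 5 mg/L the 8 lists together were called no more often than all genes. At an unadjusted p under 0.05 there were 18 lines with PFOS, 13 with PFECHS and 44 with FBSA, where 7.98%, 7.03% and 28.1% of all genes had one. The cardiac sarcomere list had 1 lower of 23 lines tested at FBSA 5 mg/L, DES (ENSDARG00000005221, desmin of the intermediate filaments, -1.52 ± 0.50 SE). Calcium handling and excitation had 1 lower of 22 there, SLC8A1 (ENSDARG00000013422, a sodium-calcium exchanger, -1.06 ± 0.35 SE). Of 25 cardiac transcription factor lines 1 fell, MEF2A (-0.997 ± 0.22 SE), and 2 rose, TBX2 (ENSDARG00000018025, 0.81 ± 0.26 SE) and NR2F1 (ENSDARG00000052695, 0.61 ± 0.17 SE). Their adjusted p-values with edgeR lay between 0.00499 for MEF2A and 0.0492 for SLC8A1. MEF2A had 8.29, 8.30 and 4.55 CPM at FBSA 5 mg/L, against 13.4, 16.3 and 12.5 CPM in the controls, with no overlap. The endocardium, valve and epicardium list had 0 of 26 called by edgeR, with 3 at an unadjusted p under 0.05 and 1 called by DESeq2.

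In the natriuretic peptide list, which also holds related vasoactive genes, 4 of 13 lines rose at FBSA 5 mg/L and none fell, where 5.79% of all genes were called higher. The fit to FBSA libraries alone called 0 of 22344 genes at 5 mg/L, so all 4 calls were lost there. All 4 calls were also lost without FBSA 5 mg/L pool 3, and 1 was left without FBSA control 2. They were both ADM lines, which encode adrenomedullin, a peptide that widens blood vessels (1.62 ± 0.37 SE for ENSDARG00000015263 and 1.40 ± 0.38 SE for ENSDARG00000069027), NPR3, the receptor that clears natriuretic peptides (1.13 ± 0.31 SE), and nppc, a C-type peptide (0.68 ± 0.20 SE), the last named after its value was seen. NPR3 had 14.2, 31.8 and 25.8 CPM at FBSA 5 mg/L, against 14.05, 10.8 and 8.12 CPM in the controls. The first exposed pool was level with the highest control. ADM ENSDARG00000069027 had 5.41, 19.7 and 17.0 CPM at FBSA 5 mg/L, against 5.93, 6.02 and 4.02 CPM in the controls, so its first exposed pool lay among the controls. The members nppa and nppb, which this list does not hold, had changes of 0.01 ± 0.95 and 0.32 ± 0.75 there (SE).

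The other muscle lists at FBSA 5 mg/L had 2 of 36 fast skeletal lines called lower, MYBPC2 (-1.16 ± 0.32 SE) and atp2a1l (-1.27 ± 0.37 SE), 0 of 14 slow skeletal lines called by edgeR (3 at an unadjusted p under 0.05, 0 by DESeq2) and 4 of 12 smooth muscle lines called lower. The smooth muscle lines were CNN1 (-2.76 ± 0.87 SE), acta2 (-1.32 ± 0.42 SE), TAGLN (-0.84 ± 0.28 SE) and MYH11 (-1.54 ± 0.51 SE), the last named after its value was seen. The medians over the lists were -0.24 for sarcomere, -0.52 for fast skeletal and -0.74 for smooth muscle, against -0.01 over all genes, of which 5.44% were called lower and 5.79% higher. The fit to FBSA libraries alone called 0 of 22344 genes, so all 8 lists had 0 calls there. Without FBSA 5 mg/L pool 3, all 8 lists also had 0 calls by edgeR. Without FBSA control 2 the sarcomere, calcium, fast skeletal and smooth muscle lists had 0 calls, and the transcription factor and natriuretic peptide lists 1 each. Without FBSA 5 mg/L pool 2 there were 9 sarcomere, 4 calcium, 8 transcription factor, 23 fast skeletal and 6 slow skeletal calls. The share of all genes called in that refit is not given here, nor are the counts of the remaining lists. Over all libraries left out in turn, the genes called of all at FBSA 5 mg/L ranged from 141 to 5197. The list counts thus moved while the calls over all genes moved too, and they are not read as particular to muscle.

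**Figure D5:**
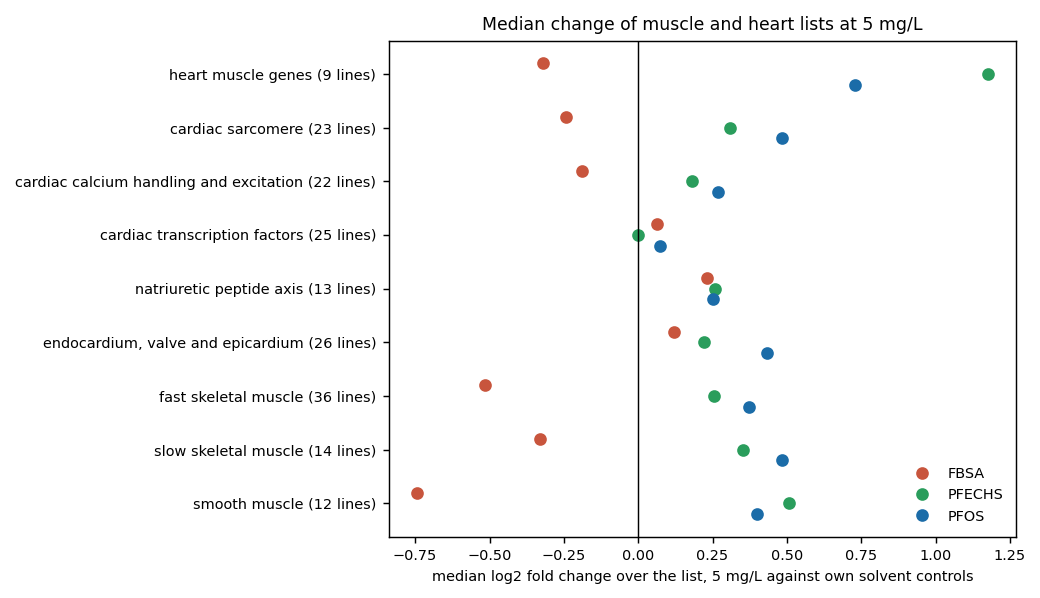
Median log2 fold change over each list at 5 mg/L against the compound's own solvent controls, 1 point per compound and list, with the number of lines tested. The heart muscle genes had medians of -0.32 with FBSA, 1.18 with PFECHS and 0.73 with PFOS, and the other muscle lists also lie left of 0 with FBSA and right of 0 with PFECHS and PFOS.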

How the data were processed

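The deposited table holds expected counts per Ensembl gene, judged from the values, since between 54.1% and 79.8% of the deposited values in a library had decimals. Per the submitters' processing notes, FastQC, MultiQC and Trimmomatic were used on the reads. The counting program, its use of strand and the build are not given in any source used here. A name table gave symbols for 23598 of 25859 lines. After rounding, filterByExpr removed lines with few counts, leaving 22703 genes. The main test was the quasi-likelihood F test of edgeR 4.0.16 under R 4.3.3, with TMM factors, 1 coefficient per group over 44 libraries, 29 residual degrees of freedom and Benjamini-Hochberg adjustment over all genes at 0.05. The 30 contrasts were 12 of concentrations, 3 trends in equal steps, 12 between compounds and 3 between controls. SE was taken as the size of the log2 fold change over the square root of F. Alternatives used DESeq2 1.42.0, RLE factors, no filter, other terms, the libraries of 1 compound, and each library left out. Log2 CPM for correlations had a prior count of 2. The calculation was tested on simulated data. All members are named, with up to 3 called lines of smallest p from every other list and the 5 genes most alike, lines of placeholder symbol or no symbol left out. The members, lists and tests were chosen with earlier results of these data known. At total counts from 24478738 to 36533705 a library, scarce lines such as nppb rest on few counts.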

Additional observations from a re-analysis of the deposited data

Results flagged for a closer look

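Among the members and the lines described beside them, for 2 lines the change at 5 mg/L differed between compounds by a test of the difference itself. MYH6 ENSDARG00000079564 changed by 1.03 log2 units less with FBSA than with PFOS (difference -1.03 ± 0.30 SE, edgeR adjusted p = 0.0426). For this line 2 of 3 FBSA pools lay below every FBSA control and 3 of 3 PFOS pools above every PFOS control. In that contrast 4.92% of all genes were called, and lines of other heart and muscle lists, named in the Results, were called lower too. The MYH6 call was lost without certain single libraries of either compound, named in the Results (differences from -1.29 to -0.80 over all left out in turn). It was also lost with a term for the last columns of the table (-0.79, edgeR adjusted p = 0.0942) or for the main axis (-0.67, edgeR adjusted p = 0.0519). TNNI1 ENSDARG00000000474, which is not a member, had a difference of -2.92 ± 0.93 (SE, edgeR adjusted p = 0.0438) between FBSA and PFECHS, with 2 of 3 FBSA pools below every FBSA control and 3 of 3 PFECHS pools above every PFECHS control. Its counts ranged from 1 to 36 a library, and the call was lost when any 1 of 9 libraries was left out. With the replicate number as a block the TNNI1 call was lost too (-2.84, edgeR adjusted p = 0.0660).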

How the results depend on the processing

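With the replicate number as a replicate block, TNNI1 ENSDARG00000000474 between FBSA and PFECHS moved to -2.84 (adjusted p = 0.0660) and no member's call changed; the labels do not say that numbers pair the pools, and same-numbered pools did not all deviate together (correlations from -0.34 to 0.47 for PFOS, -0.38 to 0.39 for PFECHS and -0.48 to 0.61 for FBSA, with the highest median, 0.45, in FBSA pools numbered 1, and 2 of 15, 7 of 15 and 7 of 14 libraries correlated best with their own number). DESeq2 called 1 member at PFOS 0.1 mg/L, 1 between FBSA and PFECHS at 5 mg/L and 3 between their controls, and 2280 genes of all between FBSA and PFOS at 5 mg/L, against 1116 by edgeR. The libraries of 1 compound alone gave 2 members at PFOS 0.1 mg/L, among 376 of 21980 genes called, against 4 genes in the main fit. At FBSA 5 mg/L they gave 0 of all genes, against 2550. With a term for the last 11 columns of the table the call of MYH6 ENSDARG00000079564 between FBSA and PFOS was lost (0 members, -0.79), TNNI1 had -2.83 and nppa at FBSA 5 mg/L had -0.90. With the main axis as a term, 1 member was called at FBSA 5 mg/L (nppa, 1.63), 2 in the PFOS trend, 2 in the FBSA trend and 0 between FBSA and PFOS (-0.67). Of all genes this term gave 4529 calls at FBSA 5 mg/L, 377 in the PFOS trend, 4660 in the FBSA trend and 1786 between FBSA and PFOS. That term turned the sign of MYL7 (-0.081) and nppb (-0.0185) at PFOS 5 mg/L, actc1a (-0.0105) at PFECHS 5 mg/L, and MYH7 (0.32), MYL7 (0.68), cmlc1 (0.54) and actc1a (0.47) at FBSA 5 mg/L. The causes were not tested.

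Leaving out 1 library at a time, the member count ranged over 0 to 1 in the FBSA trend (1 without FBSA 1 mg/L pool 3), 0 to 3 between FBSA and PFOS at 5 mg/L, 0 to 4 between FBSA and PFECHS at 5 mg/L and 0 to 5 between their controls, and stayed 0 in the 12 comparisons with controls. All genes called ranged from 141 to 5197 at FBSA 5 mg/L and from 56 to 4100 between FBSA and PFOS. For the FBSA trend, FBSA against PFECHS and their controls the refits' shares of all genes are not given here. The main fit called 11.2%, 9.17% and 0% of all genes in these. The member counts of the refits are therefore not read as results about the members. Log2 fold changes that crossed 0 ranged at PFOS 5 mg/L from -0.26 to 1.09 for MYH6 ENSDARG00000114031 and -0.12 to 0.96 for nppb, and at FBSA 5 mg/L from -0.89 to 0.20 for MYH7, -1.54 to 0.11 for MYL7, -1.66 to 0.31 for cmlc1, -1.33 to 0.26 for actc1a, -1.43 to 0.46 for nppa and -0.31 to 0.82 for nppb. RLE factors and no filter changed no member's call. The counts of the other lists under these settings were added after the data were seen.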
